A study of Mus musculus with 8 samples.

Results

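The liver stores glucose as glycogen after a meal and releases it between meals, and 9 genes of glucose uptake, glycolysis and glycogen turnover were followed here across maps of glucocorticoid receptor (GR) binding in mouse liver. The genes were Slc2a2, Pklr, Pfkfb1, Pfkfb3, Gys2, Pygl, Ppp1r3b, Ppp1r3c and Ppp1r3g. They were chosen from 21938 protein-coding genes for their roles, with earlier results of these data known. Merging the overlapping peaks of the 6 GR libraries gave 51428 sites, of which 38337 were centred within 50 kb of a protein-coding gene start. The 9 genes had 91 of these sites, together with 25 of 8053 regions bound by the forkhead factor FOXO1.

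GR binding was mapped by ChIP-seq, the sequencing of DNA precipitated with an antibody to GR, in livers of adult male C57BL/6J mice on chow, collected at ZT12, the onset of the dark phase. Control mice (ctrl.) had food at night only. A further group received a calorically restricted diet (cal. res.), and in another, food at night was combined with corticosterone (CORT), the principal glucocorticoid of the mouse. Each group had 2 libraries, described in the methods as biological replicates, so every p-value rests on the spread between 2 livers or preparations per group. FOXO1 was mapped in cal. res. liver only, as 1 peak list from 2 merged libraries, and has no replicate spread. The labels name no vehicle for the ctrl. livers.

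GR is a hormone-activated transcription factor that binds glucocorticoid response elements (GREs), and glucocorticoids are known for keeping blood glucose up and for increasing liver glycogen. FOXO1 is kept out of the nucleus by insulin signalling and acts in the fasting liver. Glycogen is built by glycogen synthase and broken down by glycogen phosphorylase, and protein phosphatase 1 switches the first on and the second off when a glycogen-targeting subunit brings it to the particle. In fed liver, glucose enters through GLUT2 and is broken down by glycolysis, whose last enzyme is pyruvate kinase.

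The sequences below are shown because they carry the motifs discussed with the sites of Ppp1r3c, Ppp1r3g, Pklr, Ppp1r3b and Pfkfb3. They were read from the plus strand of GRCm38.p6, the assembly of mm10, in windows of 121 bases around a peak summit or, for Pklr, around the motif. Capitals mark matches to a palindromic GRE (AGNACA and TGTNCT, 3 bases apart), a GR hexamer (AGAACA), a forkhead motif (TGTTTAC or TATTTAC), an E-box (CACGTG) or a carbohydrate response element (CACGNG and CNCGTG, 5 bases apart), the element at which the glucose-sensing factor ChREBP binds. Both strands were searched, and a match describes the letters of the window only.
Ppp1r3c, site at -12.79 kb, GRE summit, chr19:36749120-36749240: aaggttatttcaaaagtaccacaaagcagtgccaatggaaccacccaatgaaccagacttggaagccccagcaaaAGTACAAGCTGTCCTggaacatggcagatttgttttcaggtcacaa
Ppp1r3c, same site, second summit, chr19:36749626-36749746: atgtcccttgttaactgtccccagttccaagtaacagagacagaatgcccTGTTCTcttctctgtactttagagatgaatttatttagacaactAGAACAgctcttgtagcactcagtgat
Ppp1r3g, site at 1.06 kb, chr13:35959816-35959936: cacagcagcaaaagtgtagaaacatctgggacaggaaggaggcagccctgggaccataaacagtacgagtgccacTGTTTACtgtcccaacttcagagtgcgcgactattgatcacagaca
Pklr, site at 0.40 kb, chr3:89136401-89136521: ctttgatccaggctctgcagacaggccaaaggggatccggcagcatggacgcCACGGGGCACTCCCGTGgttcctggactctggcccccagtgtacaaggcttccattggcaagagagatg
Ppp1r3b, site at the start, chr8:35375485-35375605: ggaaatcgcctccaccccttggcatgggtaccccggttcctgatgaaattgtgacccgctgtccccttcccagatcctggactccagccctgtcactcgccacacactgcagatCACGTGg
Pfkfb3, site at 18.45 kb, chr2:11535071-11535191: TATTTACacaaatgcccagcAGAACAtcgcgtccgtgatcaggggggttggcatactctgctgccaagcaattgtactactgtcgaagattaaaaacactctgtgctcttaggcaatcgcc

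A peak is a stretch of the genome that the authors' caller found enriched in 1 library, and its fold enrichment is the pileup at the summit over the local background. Because that scale differs between libraries, each region was ranked within its own list, and its percentile is the share of the list at or below its fold enrichment. A site counted as held by a group if each of the 2 libraries had a peak on it, and as gained when it was held by that group and not by ctrl. Distances are from the gene start to the centre of the site, negative upstream, and the values of a group are given with replicate 1 first.

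The lists differed in length. They held 41400 and 13667 peaks (ctrl. replicates 1 and 2), 24915 and 20444 (cal. res.), 33451 and 48060 (CORT), and 8394 (FOXO1). Read depth was not analysed here. The library names followed 2 styles, 1 shared by ctrl. replicate 2 and both cal. res. libraries and the other by ctrl. replicate 1 and both CORT libraries, so cal. res. and CORT cannot be told apart from the name style. For this reason the highest-ranked site of each gene and the counts of gained and separated sites are also given against the ctrl. library of the same style. In whole liver, binding in fewer cells and less binding per cell cannot be told apart.

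Of the 91 sites, 71 and 34 carried a peak of ctrl. replicates 1 and 2, 49 and 38 of the cal. res. libraries, and 57 and 77 of the CORT libraries. Both lists with the fewest sites here, ctrl. replicate 2 and cal. res. replicate 2, were also the shortest lists. The ctrl. group held 34 sites (37.4%, beside 23.3% of all 38337 sites near a gene), cal. res. 33 (36.3%, beside 28.1%) and CORT 53 (58.2%, beside 45.4%). All 3 groups held 24 sites (26.4%, beside 16.7%). These 24 are the sites with a peak in all 6 libraries, which made up 16.7% of all sites near a gene. A peak in 1 library was found at 18 sites (19.8%, beside 36%), and 10 of those 18 were in CORT replicate 2. With equal regions, that is 12458 kept per library, the length of the shortest list, ctrl. held 56.2% of the sites at these genes, cal. res. 43.8% and CORT 41.7%, beside 37.1%, 40.3% and 43% of all sites near a gene. CORT thus went from the highest share to the lowest when the lists were made equal, and ctrl. stayed above cal. res.

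**Figure D1:**
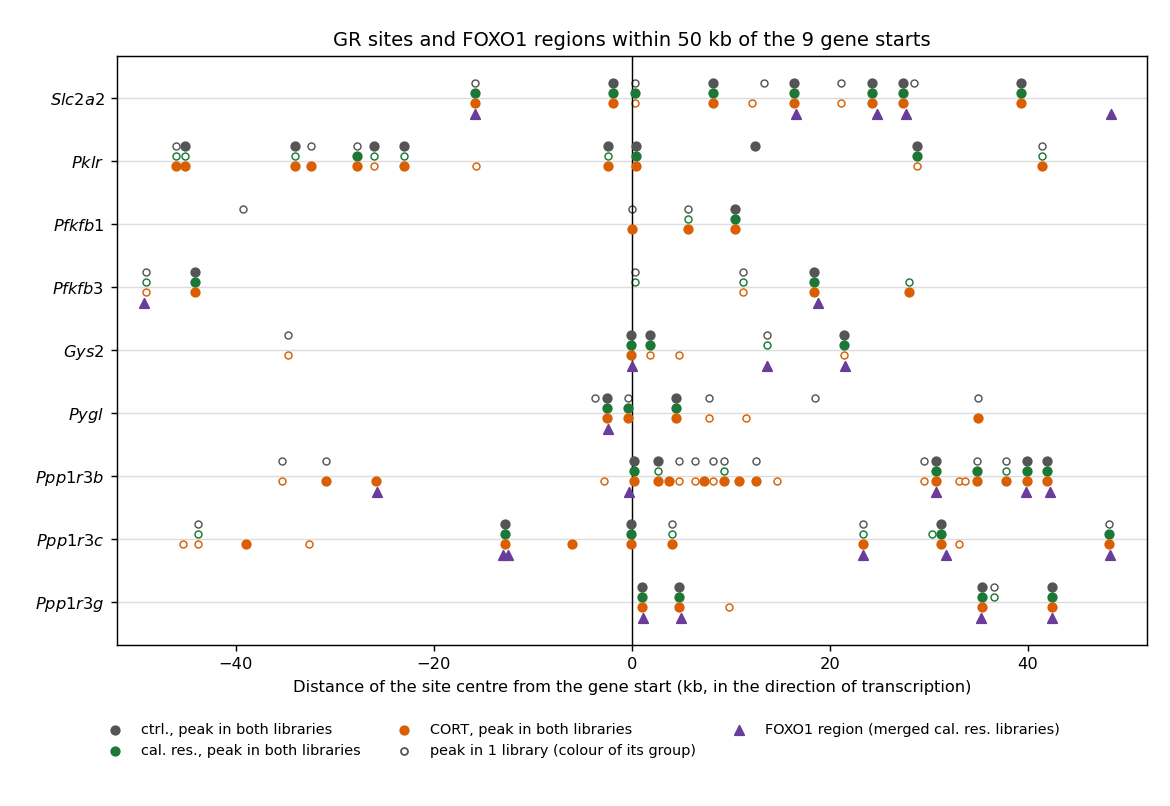
GR sites (circles) and FOXO1 regions (triangles) by distance from each gene start in kb, negative upstream. Filled circles mark sites with a peak in both libraries of ctrl. (grey), cal. res. (green) or CORT (orange), open circles a peak in 1 of them; Ppp1r3b carries 23 sites, and Pklr and Pfkfb1 carry no FOXO1 region.

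The genes differed in how many sites they had. Ppp1r3b had 23, a number reached by 0.588% of protein-coding genes, Pklr and Ppp1r3c had 13 each, Slc2a2 12, Pygl 8, Pfkfb3, Gys2 and Ppp1r3g 6 each and Pfkfb1 4. The median over all protein-coding genes was 3 and over these genes 8. Introns held 40 of the sites, stretches outside protein-coding genes 40, UTRs 9 and coding exons 2. For 75 sites (82.4%) the nearest protein-coding start was that of the gene itself. All genes except Ppp1r3g had a site within 1 kb of the gene start.

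**Figure D2:**
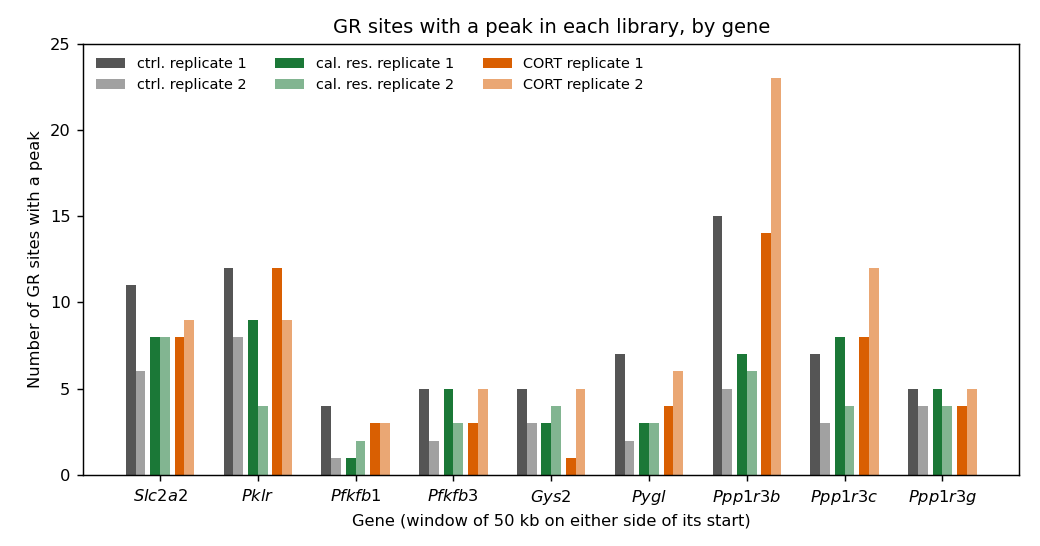
Number of GR sites with a peak within 50 kb of each gene start, 1 bar per library (dark, replicate 1; pale, replicate 2). At Ppp1r3b the bars run from 5 in ctrl. replicate 2 to 23 in CORT replicate 2, and at Pklr cal. res. replicate 2 has 4, against 8 to 12 in the other libraries.

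The site with the highest mean percentile over the 6 libraries, an absent peak counted as 0, is called the leading site of a gene. At 8 of the 9 genes it had a peak in every library, and at Pklr in 5. For each leading site the mean percentile was compared with ctrl. by a two-sided exact permutation test, 18 tests in all. With 2 libraries against 2 the smallest p that can be reached is 0.333, so no difference can pass a threshold of 0.05, and the text states whether the values of the groups overlap. Of the 18 tests, 6 gave 0.333. A test reaches that value with a probability of 0.333 when the groups do not differ. The count of 6 in 18 is therefore no more than no difference would give. Adjusted over the 18 tests, the exact permutation p of each of the 6 was 0.999.

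The separation of the groups at these leading sites depended on the ctrl. library and on the length of the lists. Shares in brackets are over all sites near a gene with a peak in every library compared. Those shares cover sites of every rank. Leading sites were chosen for a high mean percentile over these same libraries, so the shares are no like-for-like baseline for them. Both cal. res. libraries were named in the style of ctrl. replicate 2. Against it they ranked higher at 7 of the 9 leading sites (beside 53.4%) and lower at 1, that of Pklr (beside 27.8%). Against ctrl. replicate 1 they ranked higher at 1, that of Ppp1r3c (beside 14.6%), and lower at 6 (beside 67.9%). The Pklr site is 1 of these 6. Its absent peak in cal. res. replicate 2 was counted as 0, and sites lacking a peak are outside the shares. Both CORT libraries ranked lower than ctrl. replicate 1, of their own style, at 7 (beside 33.1%). They ranked higher at 1, again that of Ppp1r3c (beside 34%). Against ctrl. replicate 2 they ranked lower at 4 (beside 8.72%) and higher at 3 (beside 70.7%). With equal regions CORT lay below both ctrl. libraries at 6 leading sites (beside 18%), against 3 in the full lists (beside 5.5%). Those added were the sites of Pfkfb3, Gys2 and Pygl.

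**Figure D3:**
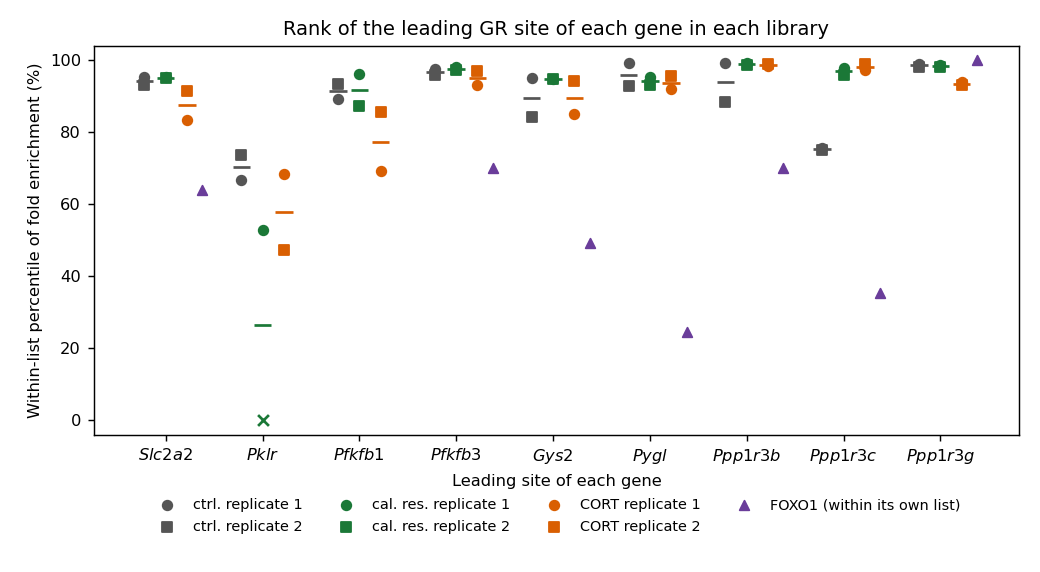
Within-list percentile of fold enrichment (%) at the leading site of each gene, 1 point per GR library, with the mean of the 2 libraries as a bar, a cross at 0 for an absent peak, and the FOXO1 percentile as a triangle where a FOXO1 region overlaps. At Ppp1r3c the ctrl. points lie at 75.6 and 75.1, and the cal. res. and CORT points between 95.9 and 99.1.

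Slc2a2 encodes GLUT2, the glucose transporter of the hepatocyte membrane (chr3:28697903-28731359, plus strand). Its 12 sites had a peak at 11 and 6 (ctrl.), 8 and 8 (cal. res.), and 8 and 9 (CORT). The leading site lay in an intron at 24.24 kb. Its percentiles were 95.4 and 93.0 (ctrl.), 95.3 and 94.9 (cal. res.), and 83.4 and 91.4 (CORT). Both CORT values lay below both ctrl. values, with a mean difference of -6.79 points (87.4 ± 5.66 against 94.2 ± 1.67, SD, n = 2; exact permutation p = 0.333), while cal. res. and ctrl. overlapped. The site held a pair of summits that recurred between libraries. At the first of them, in ctrl. replicate 2, the summit stood at 83.8, under the 91.4 of CORT replicate 2, so in the full lists the separation held at the second only. There the values were 93.5 and 93.0 (ctrl.) and 83.4 and 88.8 (CORT).

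Cal. res. held 8 sites of Slc2a2, a number reached by 1.2% of protein-coding genes, ctrl. 6 and CORT 7. With equal regions ctrl. and cal. res. held 5 each and CORT 3. Without ctrl. replicate 2 the ctrl. count was 11, against 8 in cal. res. The gained sites of cal. res. were those at -15.86 kb and at the start, 0.30 kb. At -15.86 kb the percentile was 76.4 in ctrl. replicate 1, 32.6 and 48.8 (cal. res.), and 89.9 and 56.7 (CORT), with no peak in ctrl. replicate 2. At 0.30 kb it was 57.3 in ctrl. replicate 1, 27.5 and 52.8 (cal. res.) and 10.3 in CORT replicate 2. At both sites the peak of ctrl. replicate 1 ranked above both peaks of cal. res. The upstream site also carried the highest-ranked FOXO1 region of the Slc2a2 window, at the 90.3rd percentile of the FOXO1 list. The window held 5 FOXO1 regions, and that at 48.43 kb overlapped no GR site, the only such region at the 9 genes.

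Pklr encodes the pyruvate kinase of liver and red cells, which makes the last step of glycolysis (chr3:89136142-89146784, plus strand). It lies in a crowded stretch, with 7 other protein-coding starts in its window. Its 13 sites had a peak at 12 and 8 (ctrl.), 9 and 4 (cal. res.), and 12 and 9 (CORT). Ctrl. held 8 of them, a number reached by 0.624% of protein-coding genes, CORT 9 and cal. res. 3. With equal regions ctrl. held 5, CORT 3 and cal. res. 0. Of the 13 sites, those between -46.00 and -23.01 kb lay nearest to Rusc1 and Fdps, and those at 28.81 and 41.41 kb nearest to Clk2 and Scamp3.

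At Pklr itself, the leading site at -2.43 kb had percentiles of 66.8 and 73.7 (ctrl.), 52.9 in cal. res. replicate 1 and no peak in replicate 2, and 68.5 and 47.4 (CORT). It is the lowest leading site of the 9 genes, and the cal. res. values lay below those of ctrl. (26.5 ± 37.4 with the absent peak as 0, against 70.2 ± 4.86, SD, n = 2; exact permutation p = 0.333). With equal regions the values were 4.27 and 73.7 (ctrl.) and 14.2 and 0 (cal. res.), and the separation was lost. The site at 0.40 kb had a peak in all 6 libraries, at 81.5 and 26.4 (ctrl.), 20.1 and 15.4 (cal. res.), and 20.3 and 68.0 (CORT). Both cal. res. values lay below both ctrl. values, which were far apart, and CORT overlapped ctrl. With equal regions cal. res. had no peak there, and CORT, with 2.48 in replicate 2 and no peak in replicate 1, also lay below the 46.2 and 26.4 of ctrl. This site is the only one of the 91 with a carbohydrate response element (1.1%, beside 0.0157% of all sites near a gene). The element, at chr3:89136453-89136469, lay 6 to 150 bases from the summits of the 6 libraries. It also falls in the RefSeq promoter window of the second Pklr start, at position -170 from that start, and 0.0457% of 32817 RefSeq promoters of the same length (GRCm38.p6) hold one.

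A site of 3196 bp in an intron of Hcn3, 12.47 kb downstream of the Pklr start, had percentiles of 82.2 and 79.9 (ctrl.) and no peak in the other 4 libraries. It is the only one of the 91 sites with a peak in both ctrl. libraries and in no other. At -34.05 kb, near the start of Fdps, an enzyme of cholesterol synthesis, the percentiles were 44.4 and 48.7 (ctrl.), 35.7 in cal. res. replicate 1, and 80.3 and 82.0 (CORT). Both CORT values lay above both ctrl. values there, but not with equal regions, where CORT stood at 53.4 and 43.6 and ctrl. replicate 2 at 48.7.

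Pfkfb1 and Pfkfb3 encode enzymes that make and remove fructose-2,6-bisphosphate, the signal that drives the committed step of glycolysis; Pfkfb1 is the main form of liver. Pfkfb1 (chrX:150588229-150643878, plus strand) had 4 sites and its leading site lay in an intron at 10.47 kb. The protein-coding start nearest to that site was that of Apex2, 8827 bp away. The percentiles were 89.2 and 93.4 (ctrl.), 96.2 and 87.4 (cal. res.), and 69.1 and 85.5 (CORT). CORT lay below ctrl. in both libraries, with a mean difference of -14.0 points (77.3 ± 11.6 against 91.3 ± 2.92, SD, n = 2; exact permutation p = 0.333), and cal. res. overlapped ctrl. The site at the start of Pfkfb1, which also lies in a UTR of Apex2, had a peak in ctrl. replicate 1 at 53.8 and in both CORT libraries, at 13.5 and 28.9.

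Pfkfb3 (chr2:11471433-11554077, minus strand) had 6 sites. The leading site, in an intron at 18.45 kb, ranked high in every library, at 97.6 and 95.9 (ctrl.), 98.2 and 97.2 (cal. res.), and 93.0 and 97.0 (CORT), and no group stood apart. With equal regions CORT, at 83.5 and 90.5, lay below ctrl., at 93.0 and 95.9. It overlapped a FOXO1 region at the 69.9th percentile, and its printed window holds a forkhead match and a GR hexamer. The summits lay 55 to 432 bases from that forkhead match, since the site carries several summits. At 27.98 kb both CORT libraries had a peak, at 33.0 and 20.2, and so did cal. res. replicate 1, at 22.9, with none in ctrl.

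Gys2 encodes the glycogen synthase of liver (chr6:142422613-142473109, minus strand). Its leading site sat on the gene start, at -0.08 kb, with percentiles of 95.1 and 84.2 (ctrl.), 94.8 and 94.8 (cal. res.), and 85.1 and 94.1 (CORT). The groups overlapped. With equal regions they did not, and cal. res. (90.5 and 92.1) lay above and CORT (64.7 and 81.6) below ctrl. (85.6 and 84.2). A FOXO1 region at the 49.2nd percentile covered the site. In an intron, at 1.88 kb, the percentiles were 80.6 and 71.8 (ctrl.), 54.1 and 37.5 (cal. res.), and 45.0 in CORT replicate 2, with both cal. res. values below ctrl. Of 6 sites CORT held 1, against 3 each in ctrl. and cal. res. CORT replicate 1 had a peak at 1 of them and CORT replicate 2 at 5, so without replicate 1 the CORT count was 5. No site of Gys2 was gained in either group.

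Pygl encodes the glycogen phosphorylase of liver (chr12:70190811-70231488, minus strand). Its leading site, at -2.47 kb, had percentiles of 99.1 and 92.7 (ctrl.), 95.2 and 93.2 (cal. res.), and 92.0 and 95.5 (CORT), and the groups overlapped. With equal regions cal. res. (91.3 and 89.7) and CORT (81.2 and 86.0) both lay below ctrl. (97.5 and 92.7). The FOXO1 region on it ranked low in its list, at the 24.6th percentile, and is the only one of the Pygl window. At 4.50 kb the percentiles were 74.7 and 65.8 (ctrl.), 60.4 and 19.3 (cal. res.), and 80.8 and 62.9 (CORT), with cal. res. below ctrl., which was lost with equal regions (26.4 and 65.8 in ctrl., 27.9 and no peak in cal. res.). At the start, -0.34 kb, a peak was called in 5 libraries, at 62.7 in ctrl. replicate 1, 41.5 and 34.2 (cal. res.), and 27.2 and 34.6 (CORT). That site counted as gained in both groups, although ctrl. replicate 1 ranked highest there.

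Ppp1r3b encodes GL, the liver glycogen-targeting subunit of protein phosphatase 1 (chr8:35375739-35388139, plus strand). No other protein-coding start lay in its window. Its 23 sites had a peak at 15 and 5 (ctrl.), 7 and 6 (cal. res.), and 14 and 23 (CORT). CORT held 14 of them, a number reached by 0.16% of protein-coding genes, and ctrl. and cal. res. held 5 each. CORT gained 9 sites here, a number reached by 0.082% of genes, and 4 of the 9 had no ctrl. peak. With equal regions, however, CORT held 4 sites, ctrl. 5 and cal. res. 4. Without ctrl. replicate 2 the ctrl. count was 15, against 14 in CORT.

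Sites of high rank in every library made up the core of the Ppp1r3b window. The leading site, at 39.93 kb, had percentiles of 99.3 and 88.5 (ctrl.), 99.1 and 98.6 (cal. res.), and 98.3 and 99.0 (CORT), with ctrl. replicate 2 apart from the rest and the groups overlapping. At 30.72 kb they were 98.5 and 88.3 (ctrl.), 98.5 and 98.8 (cal. res.), and 98.9 and 98.8 (CORT), which lay above ctrl. replicate 1 by less than 1 point. At 41.94 kb they were 87.6 and 71.5 (ctrl.), 94.5 and 95.3 (cal. res.), and 94.3 and 90.7 (CORT), and both groups lay above ctrl. With equal regions cal. res. stayed above, and CORT, at 86.4 and 70.6, overlapped the 63.9 and 71.5 of ctrl. All 3 sites overlapped FOXO1, at the 70.0th, 87.8th and 73.5th percentile of its list.

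The site at the Ppp1r3b start, whose printed window ends in an E-box, had percentiles of 98.2 and 52.4 (ctrl.), 96.0 and 93.0 (cal. res.), and 99.0 and 99.4 (CORT). Both CORT values lay above both ctrl. values, and cal. res. overlapped ctrl. Downstream of it, 10 sites lay between 2.60 and 14.70 kb, a stretch singled out after its values were seen. In this stretch the ctrl. libraries had a peak at 6 and 1 sites, the cal. res. libraries at 2 and 0, and the CORT libraries at 6 and 10. CORT held 6 of the 10, ctrl. 1 and cal. res. 0. CORT and ctrl. replicate 1, which share a name style, both had peaks there.

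Ppp1r3c encodes another glycogen-targeting subunit, known as PTG (chr19:36731731-36736653, minus strand). Its leading site, at -12.79 kb in a stretch outside protein-coding genes, had percentiles of 75.6 and 75.1 (ctrl.), 97.9 and 95.9 (cal. res.), and 97.3 and 99.1 (CORT). All 4 libraries of cal. res. and CORT lay above both ctrl. libraries, which agreed to within 1 point. The differences were 21.5 points for cal. res. (96.9 ± 1.38 against 75.4 ± 0.317, SD, n = 2) and 22.8 points for CORT (98.2 ± 1.26), the largest increases among the leading sites, each with exact permutation p = 0.333. Apart from Pklr (70.2), the other leading sites had ctrl. mean percentiles of 89.6 to 98.6, so they had less room to rise. With equal regions the percentiles were 29.0 and 75.1 (ctrl.), 96.1 and 93.9 (cal. res.), and 93.5 and 97.0 (CORT). The separation therefore held with equal lists. That it also held against either ctrl. library alone follows from lying above both, and is no separate check of the name style. The 2 comparisons share their ctrl. libraries.

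The site held a pair of summits 506 bases apart, shown above. At the first, which carries the palindromic GRE, the fold enrichment was 7.19 in ctrl. replicate 1, 26.0 and 12.6 (cal. res.), and 22.3 and 45.4 (CORT), and ctrl. replicate 2 had no summit. At the second, which carries GR hexamers, it was 8.79 and 5.84 (ctrl.), 30.2 and 17.9 (cal. res.), and 28.1 and 40.7 (CORT). Both summits thus ranked higher in cal. res. and CORT than in ctrl., at 91.4 to 99.1 against 65.2 for the first and at 95.9 to 98.8 against 75.1 and 75.6 for the second. The second was the higher in 5 libraries and the first in CORT replicate 2. Each fell within a FOXO1 region, chr19:36749033-36749379 at the 31.4th percentile and chr19:36749581-36749813 at the 35.4th. The palindrome was the only one found near the summits of the 91 sites (1.1%, beside 0.334% of all sites near a gene).

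At the Ppp1r3c start, -0.04 kb, the percentiles were 62.0 and 44.4 (ctrl.), 49.0 and 41.8 (cal. res.), and 90.0 and 97.3 (CORT). Here CORT stood above ctrl. in both libraries, and cal. res. overlapped ctrl. The RefSeq promoter of Ppp1r3c holds an E-box, found in 7.15% of promoters. CORT gained 5 sites at Ppp1r3c, of which those at -5.99 and -38.96 kb had no ctrl. peak. At -5.99 kb the CORT percentiles were 2.48 and 49.7, and at -38.96 kb 9.64 and 6.57. The site at -38.96 kb thus ranked low in both CORT libraries, and that at -5.99 kb in replicate 1 only. Cal. res. gained the site at 48.25 kb, with percentiles of 29.6 in ctrl. replicate 1, 68.9 and 31.5 (cal. res.), and 41.2 and 64.8 (CORT). Ctrl. replicate 1 ranked lowest of the 5 peaks there.

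**Figure D4:**
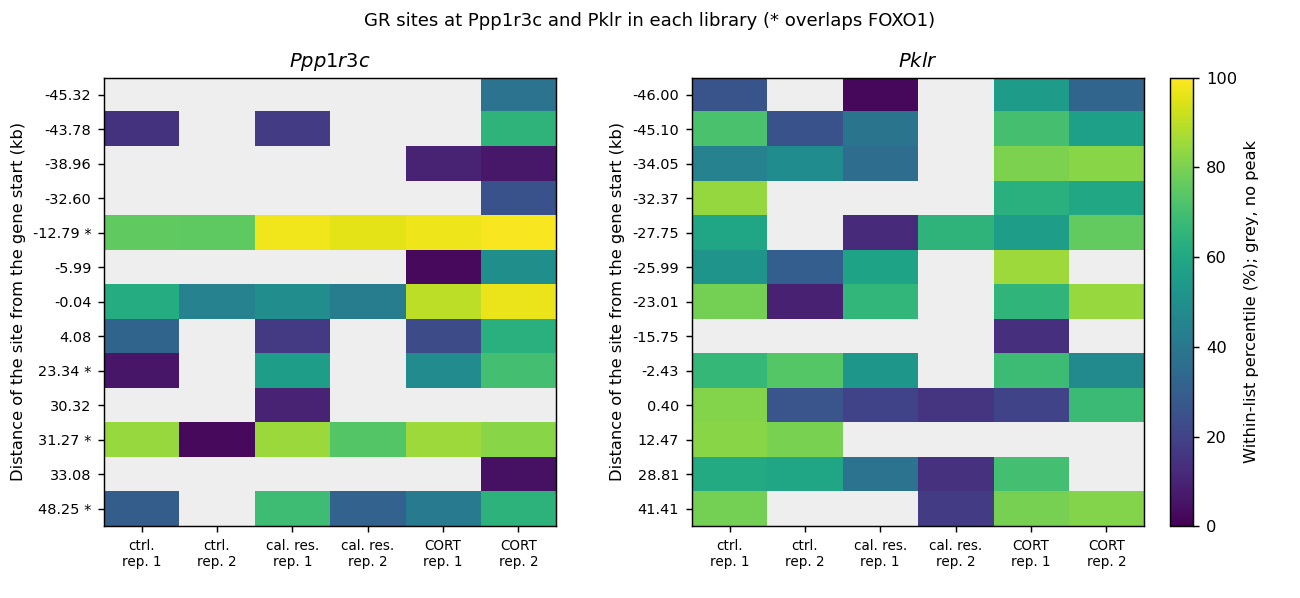
Within-list percentile (%) of each GR site of Ppp1r3c and Pklr by library, sites ordered by distance from the gene start in kb, with grey for no peak and an asterisk for FOXO1 overlap. The row at -12.79 kb of Ppp1r3c is brightest in cal. res. and CORT, and the Pklr column of cal. res. replicate 2 is mostly grey, with 4 peaks.

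Ppp1r3g encodes a glycogen-targeting subunit as well (chr13:35958839-35970388, plus strand). Its leading site, in an intron at 1.06 kb, had percentiles of 99.1 and 98.1 (ctrl.), 98.8 and 98.2 (cal. res.), and 93.9 and 93.0 (CORT). Both CORT values lay below both ctrl. values, with a mean difference of -5.15 points (93.4 ± 0.661 against 98.6 ± 0.658, SD, n = 2; exact permutation p = 0.333), and cal. res. overlapped ctrl. With equal regions CORT stood at 85.6 and 77.9 and ctrl. at 97.3 and 98.1. The FOXO1 region here was the strongest at the 9 genes, at the 99.9th percentile of its list with a fold enrichment of 39.7. The forkhead match printed above, at chr13:35959891-35959897, lay 2 to 52 bases from the 6 GR summits.

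At 4.81 kb in Ppp1r3g the percentiles were 98.6 and 92.0 (ctrl.), 96.4 and 95.1 (cal. res.), and 87.6 and 95.4 (CORT). At 35.34 kb they were 96.0 and 88.1 (ctrl.), 94.7 and 92.2 (cal. res.), and 95.7 and 94.8 (CORT), and at both sites the groups overlapped. Each group held the same number of sites at Ppp1r3g, 4. All 4 sites held by cal. res. had a peak in all 6 libraries and overlapped FOXO1, beside 47.8% of all such sites near a gene. No site was gained there in either group.

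Over the 9 genes, cal. res. gained 6 sites against ctrl. (6.59%, beside 10.7% of all sites near a gene). Each of the 6 was called in ctrl. replicate 1 and none in ctrl. replicate 2, the shortest list. None lacked a ctrl. peak altogether, a class that made up 0.746% of all sites, so against ctrl. replicate 1 alone the count was 0 (beside 0.86%). Against ctrl. replicate 2 alone, the library of the same name style, it was 6 (6.9%, beside 11.9%). CORT gained 24 sites (26.4%, beside 24.5%), and 17 of these had a peak in ctrl. replicate 1. The other 7 (7.69%, beside 4.35%) had no ctrl. peak, 4 at Ppp1r3b, 2 at Ppp1r3c and 1 at Pfkfb3. Against ctrl. replicate 1 alone, of the same name style, the CORT count was 7 (7.69%, beside 4.75%), and against ctrl. replicate 2 alone 24 (27.6%, beside 26.7%).

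Among sites with a peak in all 4 libraries compared, both cal. res. percentiles lay above both ctrl. percentiles at 2 of 27 (7.41%, beside 10.1%), the sites of Ppp1r3b at 41.94 kb and Ppp1r3c at -12.79 kb. They lay below at 4 (14.8%, beside 23.9%), 2 at Pklr and 1 each at Gys2 and Pygl. CORT lay above ctrl. at 6 of 29 sites (20.7%, beside 28.6%), of which 3 belong to Ppp1r3b, 2 to Ppp1r3c and 1 to Pklr. CORT lay below at 3 (10.3%, beside 5.5%), the leading sites of Slc2a2, Pfkfb1 and Ppp1r3g.

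With equal regions cal. res. lay above ctrl. at 5 of 18 sites and below at 3, beside 20.4% and 22.7% of all such sites, so the sites above then outnumbered those below. CORT lay below at 8 of 17 sites and above at 3, beside 18% and 22.2%. Against the ctrl. library of the same name style, cal. res. lay above at 20 of 27 sites (74.1%, beside 53.4%) and below at 5 (18.5%, beside 27.8%). Against the other ctrl. library it lay above at 5 of 33 (15.2%, beside 14.6%) and below at 22 (66.7%, beside 67.9%). CORT lay above ctrl. replicate 1, of its style, at 13 of 46 sites (28.3%, beside 34%) and below at 22 (47.8%, beside 33.1%), and above ctrl. replicate 2 at 18 of 29 (62.1%, beside 70.7%) and below at 5 (17.2%, beside 8.72%). In both comparisons the more frequent direction thus changed with the ctrl. library used.

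FOXO1 regions overlapped 23 of the 91 GR sites (25.3%, beside 13.5% of all sites near a gene). Among the 24 sites with a peak in all 6 GR libraries the count was 16 (66.7%, beside 47.8%), and among the 18 sites with a peak in 1 library it was 0. Slc2a2, Ppp1r3b and Ppp1r3c had 5 FOXO1 regions each, a number reached by 1.97% of protein-coding genes, Ppp1r3g had 4, Gys2 3, Pfkfb3 2 and Pygl 1. The 6 gained sites of cal. res. included 2 with FOXO1, those of Slc2a2 at -15.86 kb and Ppp1r3c at 48.25 kb, and the 24 of CORT included 4. For gained sites and for sites with a peak in 1 library, the share over all sites is not given here. Whether these counts differ from that share is therefore not known.

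Within 100 bases of the summit of the highest-ranked library, a GR hexamer was found at 20 of the 91 sites (22%, beside 17.2%), a forkhead match at 10 (11%, beside 7.68%), a STAT motif (TTC and GAA, 3 bases apart) at 12 (13.2%, beside 7.54%), and an HNF4 motif (AGGTCA) at 16 (17.6%, beside 20%). The E-box, the site of clock and ChREBP-related factors, was found at 11 (12.1%, beside 5.12%). At the 24 sites with a peak in all 6 libraries, the STAT count was 2 (8.33%, beside 8.33%) and the forkhead count 3 (12.5%, beside 8.59%). A GR hexamer and an HNF4 motif were at 6 of them each (25%, beside 18.6% and 22.2%). The E-box count there was 8 (33.3%, beside 6.86%). These 8 were 3 sites of Slc2a2, 2 each of Ppp1r3b and Ppp1r3c and 1 in the window of Pfkfb3, at -44.12 kb in an intron of Rbm17.

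For comparison, 62 other genes of glucose uptake, glycolysis and glycogen were counted by the same rule. Of these, 53 had at least 1 GR site (85.5%, beside 73.2% of all protein-coding genes) and 23 a FOXO1 region (37.1%, beside 33.3%), with a median of 6 sites per gene. At least 1 site was held by ctrl. at 39 genes (62.9%, beside 48.6%), by cal. res. at 39 (62.9%, beside 47.2%) and by CORT at 46 (74.2%, beside 60.9%). Cal. res. held 7 sites at Ldha, which encodes a lactate dehydrogenase subunit, and 6 each at Slc2a4, Eno1, Gsk3a, Mlxipl and Pdk4. Mlxipl, which encodes ChREBP, had 13 sites, and 5 of these overlapped FOXO1. Of the 42 cal. res. gains at these genes, 1 had no ctrl. peak. It lay 46.28 kb downstream of the start of Pdk4, the kinase that shuts off pyruvate dehydrogenase, with percentiles of 32.0 and 67.6 (cal. res.) and 15.0 in CORT replicate 2.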

How the data were processed

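GR ChIP-seq peaks of 6 mouse liver libraries in 3 groups of 2 and 1 FOXO1 list from 2 merged cal. res. libraries were analysed. Samples were grouped by their titles. Per the methods, the authors aligned the reads to mm10 with BWA, removed duplicates and multiply mapping reads with Picard and Bamtools, called peaks with MACS2 for paired-end data, and took out blacklisted regions with bedtools. Whether that last step covered the FOXO1 list is not stated in the sources used here. The deposited lists give for each peak a fold enrichment (a ratio of pileup to local background), a p-value and a q-value as −log10, and the summit offset. The p-values of the FOXO1 list were not used. The largest q in the deposited GR lists was 0.0994 to 0.0998, and 9.84e-06 in the FOXO1 list, so the lists differ in stringency. Read counts per range, which the authors also used to call sites, were not analysed here, and the precision that depth gives is unknown.

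All peak ends lay within the GRCm38 chromosome lengths (chromosome 1, 195471971 bp; 0 beyond). Of rows that share start and end only the one with the highest fold enrichment was kept, regions sharing at least 1 bp were merged into sites on chromosomes 1 to 19, X and Y, and sites and FOXO1 regions centred within 50 kb of a gene start (GENCODE M21 basic set) were taken. A site with several regions of a library took the highest percentile. Motifs were searched in 201 bases around the summit. RefSeq promoters (250 bases before to 50 after the start) were matched by symbol, and 7 of the 9 genes had an entry.

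The genes, lists and tests were chosen with earlier results of these data known. The genes named were the 9 members, their leading, gained and FOXO1-overlapping sites, and of the other pathway genes the 5 with most sites held by cal. res., with ties, and any with a cal. res. gain lacking a ctrl. peak. Other sites were named for separated groups, motifs or neighbouring genes after their values were seen. Alternatives were q thresholds of 0.01 and 1e-05, equal regions, windows of 25 and 100 kb, sites nearest to the gene only, ranks by p-value, FOXO1 overlap of 50%, a replicate block and leaving out each library. Merging, ranking and the call of a group as higher were tested on simulated data. The simulated lists had similar lengths and less spread between replicates than the lists here. They check the code only and give no error rate for these data. The tools were SciPy 1.17.1, pandas 2.3.3, NumPy 2.4.6, matplotlib 3.10.9 and pysam 0.24.0 under Python 3.11.15. The values of 1 of the other genes of the pathway are not reported here.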

Additional observations from a re-analysis of the deposited data

How the results depend on the processing

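Of 143 values recomputed under alternatives, 90 stayed within 1.5 times of the value reported and 53 moved further. With q of at most 0.01 the cal. res. gains were 11. With q of at most 1e-05 there were 60 sites, held by ctrl. at 20, cal. res. at 20 and CORT at 33, and cal. res. lay below ctrl. at 0. With equal regions there were 48 sites, held by cal. res. at 21 and CORT at 20, with 3 gains in each group; cal. res. lay above ctrl. at 5 of 18 sites (beside 20.4% of all such sites), CORT above at 3 of 17 (beside 22.2%) and below at 8 (beside 18%), and at the leading sites cal. res. lay above at 2 and CORT below at 6. Within 25 kb there were 52 sites, 13 with FOXO1, held by ctrl. at 21, cal. res. at 20 and CORT at 30, with 3 cal. res. and 12 CORT gains, and cal. res. lay above ctrl. at 1 site and CORT at 3. Within 100 kb the gains were 12 and 37. The causes of these changes were not tested beyond the smaller or larger number of regions that each alternative keeps. Where no share over all sites stands beside a count, whether all sites changed alike is not known here.

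Leaving out each library in turn, the sites held by ctrl. ranged from 35 to 71, the highest value being that without ctrl. replicate 2, the cal. res. gains from 0 to 16 and the CORT gains from 7 to 46, the last without CORT replicate 1. Without ctrl. replicate 2 the gains were 0 and 7 (beside 0.86% and 4.75% of all sites near a gene). Sites with cal. res. above ctrl. ranged from 3 to 20 and below from 5 to 22, and with CORT above from 8 to 18 and below from 5 to 22. The highest counts came without a ctrl. library, and the shares over all sites rose there too. Without ctrl. replicate 1 the share above went from 10.1% to 53.4% (cal. res.) and from 28.6% to 70.7% (CORT). Without ctrl. replicate 2 the share below went from 23.9% to 67.9% and from 5.5% to 33.1%. At the leading sites cal. res. lay above at 1 to 7 and below at 1 to 6, and CORT above at 1 to 3 and below at 4 to 7. Leaving a library out leaves fewer values that must be separated, so these counts can only grow or stay at sites with a peak in all libraries.

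Nothing in the labels says that equal replicate numbers mark paired samples, and the deviations of same-numbered libraries correlated at -0.0467 for ctrl. and cal. res. and -0.125 for ctrl. and CORT over 8095 sites. With the replicate block cal. res. lay above ctrl. in both pairs at 2 leading sites. A crossed pairing for CORT, chosen after seeing the data, gave 1 leading site above and 6 below in both pairs. The peak lists carry no read depth, and 2 libraries per group cannot give a p-value under 0.333.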
